A study of Mus musculus with 6 samples.

Results

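Genes of 3 connected DNA repair systems, homologous recombination, the Fanconi pathway and mismatch repair with its sliding clamp, were followed in primary mouse embryonic fibroblasts treated with erastin. The set held 34 genes, chosen by symbol from a fixed list, and each of the 34 symbols matched 1 of the 43346 rows of the count table. The cells were primary fibroblasts of the C57BL/6 mouse strain at passage 9, cultured from embryos, and were kept in a serum medium that contained 2-mercaptoethanol. One group of 3 libraries came from cells given 3 µM erastin for 24 h, and the other group of 3 came from cells given the solvent DMSO; no genetic change is described in either. Erastin blocks cystine uptake and is used to induce ferroptosis, a death driven by lipid peroxidation. The series describes the experiment as done in triplicate, and nothing says whether the replicates came from separate embryo preparations. The p-values set each difference against the spread of these 6 libraries within their groups. They may not cover the spread between embryo preparations.

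Homologous recombination copies a break in DNA from an intact sister sequence. BRCA1 with BARD1 prepares the break, PALB2 and BRCA2 load a recombinase on the cut end, a family of recombinase paralogs steadies the filament, and RAD54 proteins help it invade the sister. The Fanconi pathway opens crosslinks between the strands: a core complex attaches ubiquitin to the FANCD2 and FANCI pair, which then calls in nucleases and recombination. Mismatch repair reads errors left by replication through MSH6 or MSH3, cuts through PMS2, and works with PCNA, the ring that slides on DNA, and with the RFC complex that opens this ring. Many of these genes are known to be transcribed mainly in cells that copy their DNA, and fibroblasts in culture divide.

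Sequences before the start sites are shown for some of the genes that were lower with erastin. Of the 34 genes, 28 had an entry in the RefSeq promoter table (build GRCm38.p6), and the 250 bases before each start were searched on both strands for E2F-type letters (TTTCCCGC, TTTCGCGC, TTTGCCGC or TTTGGCGC), for CHR letters (TTTGAA or TTCGAA), for CCAAT and for the GC box GGGCGG. The first 4 stretches are examples from genes that were lower with erastin and do not stand for all of these. All 4 hold CCAAT, which not every lower gene does, and the capitals mark the CCAAT letters on either strand.
Brip1: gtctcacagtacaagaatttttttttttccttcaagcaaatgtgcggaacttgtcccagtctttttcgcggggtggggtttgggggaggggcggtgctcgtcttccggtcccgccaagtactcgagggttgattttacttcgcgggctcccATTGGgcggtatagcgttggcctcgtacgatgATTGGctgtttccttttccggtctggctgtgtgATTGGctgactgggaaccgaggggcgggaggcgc
Rad51ap1: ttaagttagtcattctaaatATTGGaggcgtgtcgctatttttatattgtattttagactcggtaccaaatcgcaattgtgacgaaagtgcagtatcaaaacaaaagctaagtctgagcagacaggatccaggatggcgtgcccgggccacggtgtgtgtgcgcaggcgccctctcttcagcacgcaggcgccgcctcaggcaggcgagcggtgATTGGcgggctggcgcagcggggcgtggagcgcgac
Fanca: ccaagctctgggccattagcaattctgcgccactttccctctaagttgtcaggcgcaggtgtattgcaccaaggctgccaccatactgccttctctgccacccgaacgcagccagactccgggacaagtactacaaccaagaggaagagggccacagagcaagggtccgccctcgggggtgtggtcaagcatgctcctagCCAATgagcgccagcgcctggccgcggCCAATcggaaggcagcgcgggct
Msh6: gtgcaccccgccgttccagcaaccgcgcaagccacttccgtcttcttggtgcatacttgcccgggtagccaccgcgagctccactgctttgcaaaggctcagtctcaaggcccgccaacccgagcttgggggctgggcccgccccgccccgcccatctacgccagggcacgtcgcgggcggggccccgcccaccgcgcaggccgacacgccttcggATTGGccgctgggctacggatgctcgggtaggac
These lie at chr11:86201194-86201443 (minus strand), chr6:126939588-126939837 (minus strand), chr8:123318577-123318826 (minus strand) and chr17:87974800-87975049 (plus strand). The last is a stretch of 30 bases with the E2F-type letters in capitals, from a clamp loader gene that was lower.
Rfc3: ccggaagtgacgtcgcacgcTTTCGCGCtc
It lies at chr5:151651209-151651238 on the minus strand, and the 8 letters began 10 bases before the start of the RefSeq entry. The gene model of Rfc3 that gave its coordinates reaches to 151651242, so the stretch lies inside that model.

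CCAAT was the motif found most often before the genes that fell. It stood before 10 of the 12 lower genes with a promoter entry (83.3%) and 8 of the other 16, against 40.6% of the 10107 tested genes in the table and 37.5% of all 27025. The 2 of these 12 genes without it were Fanci, which had the largest fall, and Rfc5. The lower genes Rad54b, Fancd2, Exo1 and Rfc2 had no promoter entry and were not searched. Starts here are those of the promoter table and can differ from the gene models. The Fanci window, chr7:79392088-79392337, lies inside its gene model, which starts at 79391929, so the bases before that start were not searched. The Rfc5 window, chr5:117389024-117389273, runs into its model, which ends at 117389047. Brip1 had 3 copies of CCAAT, at 99, 67 and 34 bases before the start. Pms2 also had 3 and Xrcc3 had 6, and neither of these passed. E2F-type letters were found before 5 of the 28 genes (17.9%), namely Brca2, Bard1, Fancg, Msh3 and Rfc3, of which only Rfc3 was lower with erastin; 3.96% of the tested genes held them. CHR letters were found before 2 genes, Bard1 and Rfc3 (7.14%, against 14.4% of tested genes), and the GC box before 18 (64.3%, against 65.2%). A match of letters is a description of these windows and not a measured binding site.

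The libraries held 13333911 to 20509970 counted reads. Taken over genes, which do not count as replicates, log2 levels correlated at 0.965 to 0.983 inside a group and 0.924 to 0.938 across groups, and the replicates differed by more than sampling noise, so each library counted once. The fibroblast label was checked against markers: 11 fibroblast markers summed to 36581 to 39904 CPM (the standard unit for counts scaled to library size, here with TMM factors) in DMSO and 26506 to 28117 CPM in erastin libraries. Sums were at most 49.7 CPM for 7 immune, 16.4 for 4 endothelial, 3.25 for 6 epithelial and 0.234 for 2 pluripotency markers, and 100.2 and 62.2 for 4 neural and 4 muscle markers. Pou5f1, which marks pluripotent cells, had 0 reads. The endothelial sum was 4.66 to 7.10 CPM in DMSO and 13.2 to 16.4 CPM with erastin. Of its 4 markers, Kdr was at 4.16, 1.94 and 3.50 CPM in DMSO and 8.61, 7.42 and 8.71 CPM with erastin. Tek was at 2.34, 2.49 and 1.95 CPM in DMSO and 6.47, 5.63 and 6.59 CPM with erastin. Pecam1 and Cdh5 stayed at or under 0.778 CPM. The part of other cells in the results was not tested.

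All 34 genes passed the filter on low counts and were tested with edgeR's quasi-likelihood test, with Benjamini-Hochberg adjustment over all 14000 genes. At an adjusted p under 0.05, 16 were lower with erastin, against 21.5% of all genes tested that were lower, and 1 was higher, against 21.6%; over both directions 43.1% of all genes passed. The 16 were Brca1, Brip1, Rad51ap1, Rad54l, Rad54b, Exo1, Fanca, Fancb, Fance, Fancf, Fancd2, Fanci, Msh6, Rfc2, Rfc3 and Rfc5, and the 1 higher was Msh3. The median log2 fold change was -0.60 over the 34 genes and -0.0014 over all genes tested. In 19 genes all 3 erastin libraries lay under all 3 DMSO libraries (25.9% of all genes did), and in 1 they lay over them (26.7%). A group of 10 genes, Rad54l, Brip1, Fanca, Fancb, Fancd2, Fance, Fanci, Exo1, Rfc2 and Rfc5, stayed lower in all 17 refits with other scalings, filters, models or 1 library left out. In these bulk libraries fewer cells that copy their DNA and less of a transcript in each cell cannot be told apart.

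**Figure D1:**
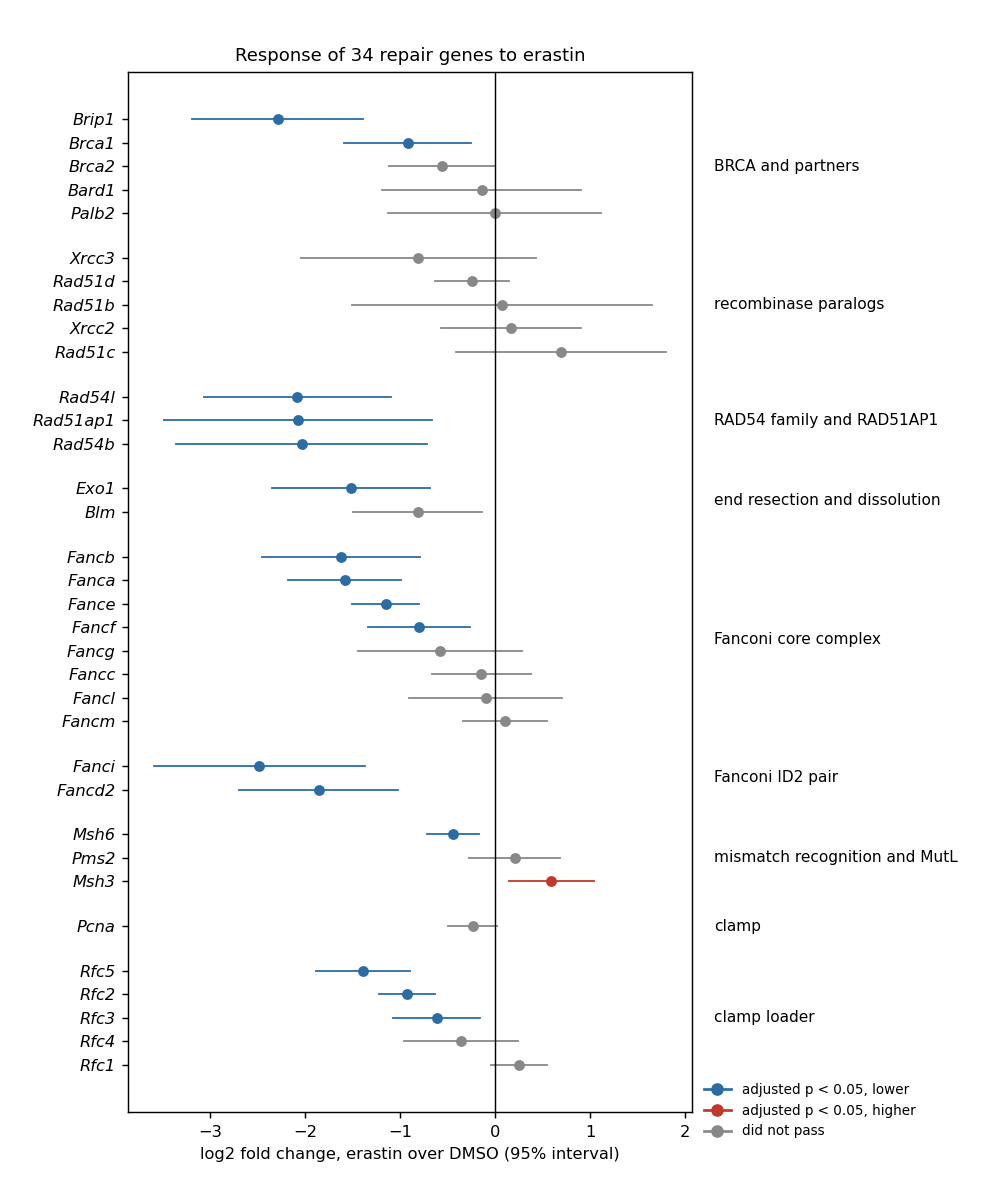
Log2 fold change of each of the 34 genes, erastin over DMSO, as points with 95% intervals from the edgeR fit, grouped by biochemical role. The Fanconi ID2 pair and the RAD54 family lie between -2.48 and -1.86, while the recombinase paralogs lie on both sides of 0.

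**Figure D2:**
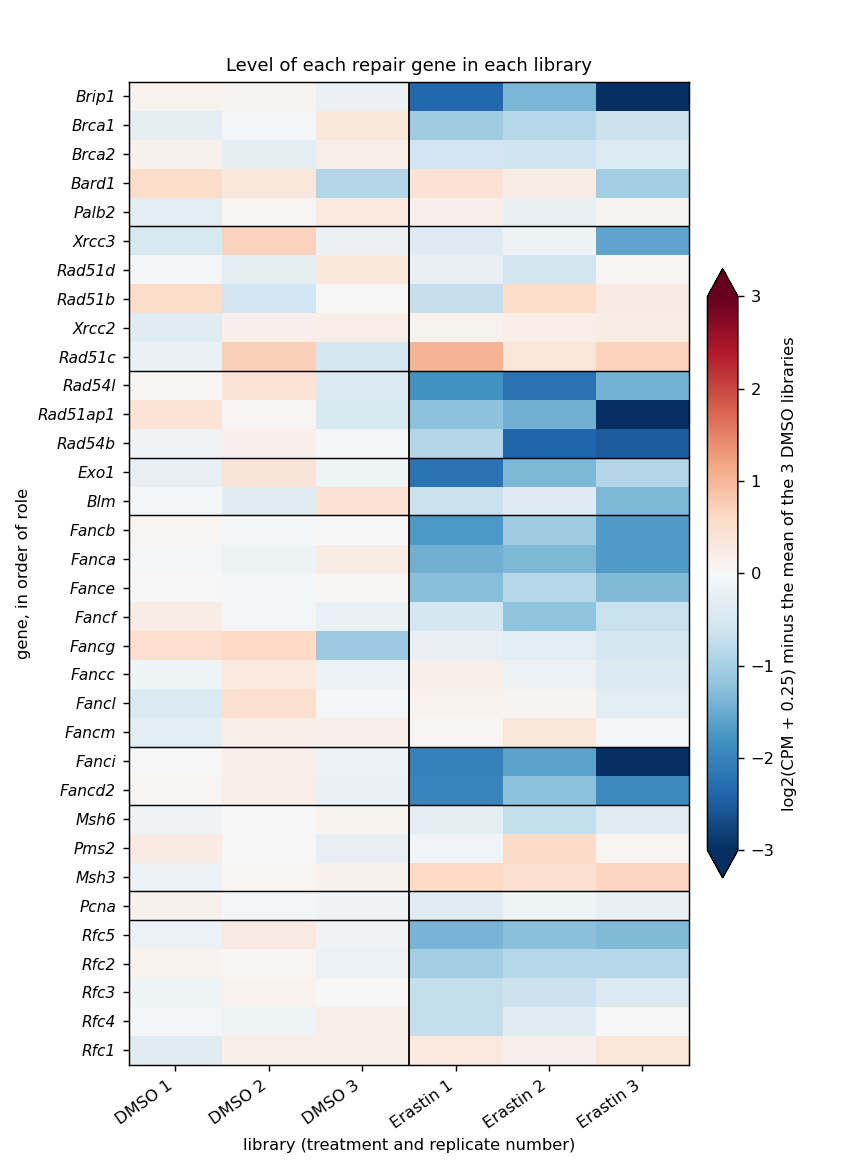
Each column is 1 library and each row 1 gene; colour is log2(CPM + 0.25) minus the mean of the 3 DMSO libraries. Rows such as Brip1, Fanci, Fancd2 and Rfc5 are blue in all 3 erastin libraries, and rows such as Bard1 and Fancg differ among the DMSO libraries themselves.

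Markers of DNA copying and division moved in the same direction in these libraries. Of 33 S phase and mitosis markers, 26 were lower and 1 higher, with a median log2 fold change of -1.61. Among all genes tested, 21.5% were lower and 21.6% higher. Mki67, which marks cycling cells, was at 87.0 ± 20.4 CPM in DMSO and 9.07 ± 0.981 CPM with erastin (SD, n = 3; edgeR adjusted p = 1.9e-09); Top2a fell by 2.32 and Ccna2 by 2.87 on the log2 scale. Their part in the changes of the repair genes was not tested.

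Among BRCA1 and its partners, Brip1 fell furthest. Brip1 (ENSMUSG00000034329.12, chr11:86058138-86201193 in GRCm38) encodes a helicase that binds BRCA1 and is itself a Fanconi protein. It was at 7.78, 7.59 and 6.23 CPM in DMSO replicates 1 to 3 and at 1.21, 2.63 and 0.622 CPM in erastin replicates 1 to 3. The groups did not overlap, and the log2 fold change was -2.29 (SE 0.42, edgeR adjusted p = 0.00051), a 4.89-fold lower level. Without erastin replicate 2 the log2 fold change was -2.95. Brca1 (ENSMUSG00000017146.8, chr11:101488764-101551955) was at 4.61, 5.38 and 7.24 CPM in DMSO and 2.56, 2.99 and 3.53 CPM with erastin. Its fall was smaller, -0.92 on the log2 scale (with SE 0.31, edgeR adjusted p = 0.0269), and did not pass without DMSO replicate 2 or 3 or erastin replicate 1 or 2 (edgeR adjusted p = 0.0536, 0.101, 0.0997 and 0.0597).

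Bard1, Brca2 and Palb2 did not pass. Bard1, the obligate partner in the BRCA1 ubiquitin ligase, was at 4.23, 3.60 and 1.40 CPM in DMSO and at 3.86, 3.29 and 1.24 CPM with erastin, so that replicate 3 was low in both groups and the groups overlapped. Its log2 fold change was -0.14, with a 95% interval of -1.19 to 0.90 (edgeR adjusted p = 0.843). Brca2, which carries the recombinase to the break, was at 6.89 ± 1.22 and 4.66 ± 0.365 CPM (SD, n = 3), with a log2 fold change of -0.56 (edgeR adjusted p = 0.0982) although its groups did not overlap. It passed after an offset for GC content and length (edgeR adjusted p = 0.0257). Palb2, the bridge between BRCA1 and BRCA2, had only 12 to 30 reads a library, and its log2 fold change of -0.01 had an interval of -1.13 to 1.11.

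Brca1 stands head to head with Nbr1, which encodes an autophagy receptor, with 194 bases between the 5′ ends of the gene models. Nbr1, chosen after its values were seen, was at 111, 107 and 107 CPM in DMSO and at 205, 201 and 210 CPM with erastin (log2 fold change 0.92 with SE 0.07, edgeR adjusted p = 1.46e-07). The neighbours on this stretch thus changed in opposite directions. Such pairs were frequent in the set: 12 of the 34 genes (35.3%) had a protein-coding gene on the other strand whose 5′ end lay within 1000 bases, against 16.0% of the 12539 protein-coding genes tested. Of the 12 neighbours, 3 were lower, 2 higher, 6 did not pass and 1 was not tested. These counts lie near the shares of all genes tested, 21.5% lower and 21.6% higher. For the 6 that face a gene that fell, 2 were lower (Pomgnt1, opposite Rad54l, and Gas2, opposite Fancf), 1 was higher (Nbr1), and 3 did not pass (D6Wsu163e, Mospd2 and Emc3).

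None of the 5 recombinase paralogs passed, by edgeR after adjustment or at an unadjusted p under 0.05 (0 of 5 in either case). Their products, RAD51B, RAD51C, RAD51D, XRCC2 and XRCC3, form complexes that support the recombinase filament. Rad51d was the best measured, at 252 to 444 reads a library. It was at 21.5, 18.3 and 27.6 CPM in DMSO and 18.7, 15.1 and 23.0 CPM with erastin, overlapping groups with a log2 fold change of -0.24 and an interval of -0.63 to 0.15 (edgeR adjusted p = 0.305). Xrcc2 was at 3.12 ± 0.677 and 3.51 ± 0.177 CPM (SD, n = 3; log2 fold change 0.17, edgeR adjusted p = 0.731). Rad51c, Xrcc3 and Rad51b had 5 to 60 reads a library, and their intervals, -0.42 to 1.80, -2.04 to 0.43 and -1.51 to 1.65, are wide.

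All 3 genes of the group with the RAD54 family and RAD51AP1 fell. RAD54, the product of Rad54l, is a motor that drives strand invasion; RAD54B is its relative, and RAD51AP1 aids the joining of the strands. Rad54l (ENSMUSG00000028702.11, chr4:116094264-116123690) was at 3.85, 5.04 and 2.72 CPM in DMSO and 0.885, 0.599 and 1.24 CPM with erastin, with no overlap and a log2 fold change of -2.08 (SE 0.46, edgeR adjusted p = 0.00217). Rad51ap1 (ENSMUSG00000030346.12, chr6:126923050-126939587) was at 4.99, 3.82 and 2.65 CPM in DMSO and 1.44, 1.20 and 0.0519 CPM with erastin, the last value resting on 1 read. Its log2 fold change was -2.08 (SE 0.66, edgeR adjusted p = 0.0203), and it did not pass without DMSO replicate 1 or 2 (edgeR adjusted p = 0.0837 and 0.0541). Rad54b was at 2.42, 2.94 and 2.49 CPM in DMSO and 1.30, 0.299 and 0.259 CPM with erastin, 28, 5 and 5 reads. It fell by 2.03 on the log2 scale (with SE 0.62, edgeR adjusted p = 0.0152), and by 3.20 without erastin replicate 1. It did not pass without DMSO replicate 2, erastin replicate 2 or erastin replicate 3 (edgeR adjusted p = 0.06, 0.0618 and 0.0536).

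These counts carry an overlap with other genes. Rad54b shares 2068 of its 5782 exon bases (35.8%) with Fsbp on the same strand, and Fsbp was at 0.424 ± 0.403 and 0.116 ± 0.106 CPM (SD, n = 3). Rad54l shares 15.4% of its exon bases with Lrrc41 on the opposite strand; Lrrc41 was at 107 ± 3.06 and 107 ± 3.35 CPM. A strand setting could separate Rad54l from Lrrc41 but not Rad54b from Fsbp. Whether counting used the strand, and how it treated reads shared between genes, is not given in the sources used here. What such overlaps did to these counts thus cannot be told. Of the 18 genes without any exon overlap with another counted gene, 7 were lower, 0 were higher (by edgeR without adjustment, 9 and 0 at a p under 0.05), and of the 16 with overlap 9 were lower and 1 higher. Over all genes tested, 21.5% were lower and 21.6% higher.

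Of the end-cutting and untangling enzymes, 1 fell and 1 stood at the threshold. Exo1, the exonuclease that widens the cut end and also removes the stretch around a mismatch, was at 4.91, 7.70 and 5.29 CPM in DMSO and 1.07, 2.16 and 3.06 CPM with erastin (log2 fold change -1.52 with SE 0.39, edgeR adjusted p = 0.00566). Blm, the helicase that dissolves joined molecules, was at 6.72, 5.43 and 9.65 CPM and at 4.38, 5.33 and 2.64 CPM. The Blm groups nearly met, and its log2 fold change of -0.82 (SE 0.32, edgeR adjusted p = 0.0508) did not pass. It passed in 8 of 17 refits: without DMSO replicate 2 or erastin replicate 2 (edgeR adjusted p = 0.0369 and 0.0342), with upper-quartile factors, without a filter, with the 1 CPM filter, with the GC and length offset alone or with the replicate block, and with DESeq2. Over all refits the adjusted p ran from 0.0264 to 0.201, the highest without DMSO replicate 3.

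Both genes of the Fanconi pair that receives ubiquitin fell. Fanci (ENSMUSG00000039187.12, chr7:79391929-79450264) had the largest fall of the 34 genes in this fit. It was at 4.76, 5.38 and 4.13 CPM in DMSO and 0.978, 1.38 and 0.207 CPM with erastin, the last from 4 reads (log2 fold change -2.48 with SE 0.52, edgeR adjusted p = 0.00142). Fancd2 (ENSMUSG00000034023.12, chr6:113531682-113597017) was at 4.91, 5.49 and 4.13 CPM in DMSO and 1.02, 1.92 and 1.09 CPM with erastin (log2 fold change -1.86 with SE 0.39, edgeR adjusted p = 0.0015). In the 3 DMSO libraries the Fancd2 to Fanci ratio of read counts was 1.03, 1.02 and 1, and in the erastin libraries 1.05, 1.38 and 4.78. The difference in mean log2 ratio, 0.91, had an exact two-sided permutation p of 0.1, the smallest that 3 against 3 can give (0.15 after adjustment over 3 ratios), and was 0.24 without erastin replicate 3. Fanci shares 16.0% of its exon bases with Polg on the opposite strand, which was lower by 0.26 on the log2 scale (edgeR adjusted p = 0.0423).

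The Fanconi core complex split by gene: 4 of its 8 genes fell and 4 did not pass. Fanca, a core subunit, fell from 7.48, 6.98 and 9.26 CPM to 2.75, 2.93 and 2.23 CPM (log2 fold change -1.58 with SE 0.28, edgeR adjusted p = 0.000346). It shares 10.5% of its exon bases with Zfp276 on the opposite strand, which was higher (log2 fold change 0.63, edgeR adjusted p = 0.00174). Fancb, the X-linked partner of the ubiquitin ligase subunit, fell from 4.61, 4.32 and 4.36 CPM to 1.16, 1.98 and 1.19 CPM (log2 fold change -1.62 with SE 0.39, edgeR adjusted p = 0.00367). Fance, which contacts FANCD2, was the most counted core gene, with 172 to 390 reads a library. It stood at 22.7, 21.6 and 23.4 CPM in DMSO and 9.22, 12.4 and 8.92 CPM with erastin, and the gap between the groups exceeded the spread within them (log2 fold change -1.15 with SE 0.17, edgeR adjusted p = 5.79e-05). Fancf, an adaptor made from a gene with 1 exon, was lower by 0.80 (SE 0.25, edgeR adjusted p = 0.0189). It did not pass without DMSO replicate 1 or erastin replicate 2 (edgeR adjusted p = 0.0813 and 0.0747), and 253 of its 1691 bases (15.0%) lie on exons of Gas2 on the opposite strand, which fell from 38.9 ± 0.501 to 18.0 ± 1.67 CPM (SD, n = 3).

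The other 4 core genes had intervals that held 0. Fancl, the ubiquitin ligase subunit itself, was at 3.28 ± 1.16 and 3.08 ± 0.512 CPM (SD, n = 3), with a log2 fold change of -0.10 and an interval of -0.91 to 0.70. Fancm, the translocase that anchors the core on DNA, was at 8.01, 11.4 and 11.1 CPM and at 10.5, 12.8 and 9.70 CPM (log2 fold change 0.10, interval -0.34 to 0.54). Fancc was at 8.11 ± 1.57 and 7.35 ± 1.60 CPM (log2 fold change -0.15, interval -0.67 to 0.37). Fancg was at 6.27, 6.65 and 1.87 CPM in DMSO and 3.63, 3.35 and 2.96 CPM with erastin, and DMSO replicate 3 lay under all erastin libraries (log2 fold change -0.58, edgeR adjusted p = 0.269). Without that library Fancg passed as lower, with a log2 fold change of -0.96 (edgeR adjusted p = 0.0183).

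The mismatch readers moved in opposite directions. MSH6 and MSH3 compete for a common partner, and the MSH6 complex reads single mismatches while the MSH3 complex reads longer loops. Msh6 (ENSMUSG00000005370.3, chr17:87975062-87990892) was at 35.3, 38.5 and 40.7 CPM in DMSO and 31.2, 23.2 and 29.7 CPM with erastin (log2 fold change -0.44 with SE 0.13, edgeR adjusted p = 0.0118). Msh3 (ENSMUSG00000014850.11, chr13:92211872-92355003) was at 5.82, 6.98 and 7.24 CPM in DMSO and 10.2, 9.40 and 10.6 CPM with erastin (log2 fold change 0.59 with SE 0.21, edgeR adjusted p = 0.0319). In both genes the groups did not overlap.

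Taken within each library, where the scaling cancels, there were 6.03, 5.49 and 5.60 reads of Msh6 for each read of Msh3 in DMSO and 3.05, 2.47 and 2.80 with erastin. The mean log2 ratio was 2.51 ± 0.0717 in DMSO and 1.46 ± 0.153 with erastin (SD, n = 3), a difference of -1.05 with an exact two-sided permutation p of 0.1, the smallest this design allows, and 0.15 adjusted over the 3 ratios. As single genes, both passed with all 6 libraries, but Msh6 did not pass without erastin replicate 2 (edgeR adjusted p = 0.06). Msh3 did not pass without DMSO replicate 1, DMSO replicate 2, erastin replicate 1 or erastin replicate 3 (edgeR adjusted p = 0.0962, 0.0558, 0.0923 and 0.0743), nor after the offset for GC content and length (edgeR adjusted p = 0.102).

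Pms2, the cutting subunit of the mismatch complex, was at 11.3, 9.64 and 7.94 CPM and at 8.99, 14.4 and 10.0 CPM (log2 fold change 0.20, interval -0.28 to 0.68).

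**Figure D3:**
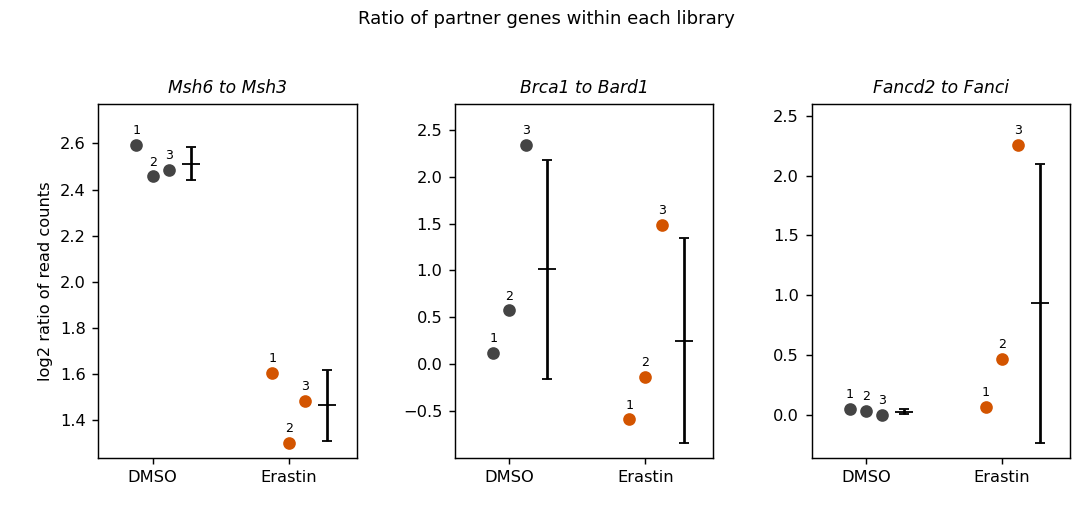
Log2 ratio of read counts of 2 partner genes within each library; points are libraries labelled with the replicate number, and the bar beside them is the mean with its SD (n = 3). The Msh6 to Msh3 ratios of the groups lie apart, replicate 3 is highest in both groups for Brca1 to Bard1, and erastin replicate 3 sets the spread of Fancd2 to Fanci.

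The Brca1 to Bard1 ratio was dominated by replicate 3 of each group. It was 1.09, 1.49 and 5.05 in DMSO and 0.665, 0.910 and 2.80 with erastin. The difference in mean log2 ratio, -0.76, had an exact two-sided permutation p of 0.5, and ran from -1.37 without erastin replicate 3 to -0.10 without DMSO replicate 3, with -1.20 without DMSO replicate 1 and -0.34 without erastin replicate 1.

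Of the clamp loader, 3 of 5 subunit genes fell. RFC is a ring of 4 small subunits, RFC2 to RFC5, with a large subunit, RFC1, that makes it specific for loading PCNA at primed ends. Rfc5 (ENSMUSG00000029363.10, chr5:117378103-117389047) fell from 9.52, 13.0 and 10.0 CPM to 3.91, 4.37 and 4.15 CPM (log2 fold change -1.39 with SE 0.23, edgeR adjusted p = 0.000196). Rfc2 (ENSMUSG00000023104.6, chr5:134581366-134601805) fell from 32.0, 31.1 and 26.5 CPM to 14.3, 16.5 and 16.4 CPM (log2 fold change -0.93 with SE 0.14, edgeR adjusted p = 6.75e-05). For both, the gap between the groups exceeded the spread within them. Rfc5 shares 10.7% of its exon bases with Wsb2 on the opposite strand. Wsb2 was at 213 ± 7.70 CPM in DMSO and 174 ± 10.5 CPM with erastin (SD, n = 3; edgeR adjusted p = 0.00556). Rfc2 shares 15.1% with Lat2 on the opposite strand, which was at 0.789 ± 0.0954 and 0.933 ± 0.645 CPM and did not pass.

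The remaining loader genes gave smaller values. Rfc3 was lower, with 9.68 ± 0.863 CPM in DMSO and 6.33 ± 0.693 CPM under erastin (SD over n = 3; log2 fold change -0.62 with SE 0.21, edgeR adjusted p = 0.0308). It did not pass without DMSO replicate 2 or 3 or erastin replicate 1 or 2 (edgeR adjusted p = 0.102, 0.0506, 0.106 and 0.0752), with scaling by total count (0.0521), without a filter (0.0704) or after thinning to the smallest library (0.0556). Rfc4 was at 5.82, 5.49 and 6.77 CPM and at 3.58, 4.61 and 5.91 CPM (log2 fold change -0.36, interval -0.96 to 0.24). It shares 12.7% of its exon bases with Eif4a2 on the opposite strand, which was higher (log2 fold change 0.34, edgeR adjusted p = 0.0036). Rfc1, the large subunit, was at 28.5, 42.1 and 42.1 CPM in DMSO and 45.3, 41.0 and 48.0 CPM with erastin (log2 fold change 0.25, interval -0.04 to 0.55, edgeR adjusted p = 0.16). Pcna, the clamp, was at 34.1, 30.3 and 28.7 CPM and at 24.2, 28.2 and 26.6 CPM, groups that did not overlap but did not pass (log2 fold change -0.24, interval -0.50 to 0.02, edgeR adjusted p = 0.132).

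Other large subunits share the small RFC ring. Chtf18, whose product loads the clamp for cohesion of sister strands, fell from 7.91 ± 0.879 to 3.43 ± 0.509 CPM (SD over n = 3; edgeR adjusted p = 0.00188). Atad5, for the unloader of PCNA, and Rad17, for the loader of the checkpoint clamp, had log2 fold changes of -0.35 and 0.32 and did not pass (edgeR adjusted p = 0.375 and 0.0905). These 3 genes were chosen from the lists after their values were seen.

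Levels were compared between genes per length, as CPM divided by the exon length of all transcripts together, in kilobases (RPKM). For Msh3 this length is 11254 bases, against 4254 for its longest transcript, so RPKM and the order of genes depend on the annotation. Pcna was highest in DMSO, at 12.9 ± 1.15 RPKM (SD, n = 3), before Msh6 at 8.78 ± 0.627, Fance at 7.08 ± 0.286, Rfc1 at 6.24 ± 1.31 and Rad51d at 6.06 ± 1.27, of which the last 3 lie within their spread of each other. A total of 21 genes were under 1 RPKM in DMSO, from Fancm at 0.976 ± 0.181 down to Palb2 at 0.170 ± 0.0444 and Rad51b at 0.153 ± 0.0841 RPKM. Most recombination genes belonged to this low class, where neighbours in the order do not differ beyond their spread. With erastin, Pcna stayed highest, at 11.0 ± 0.836 RPKM, and Rfc1 followed at 7.44 ± 0.584, while Fance stood at 3.19 ± 0.603. By depth, 10 genes had a mean under 50 reads, 6 of which were lower, and 24 had at least 50, of which 10 were lower and 1 higher. The shares over all genes tested were 21.5% lower and 21.6% higher.

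Other genes of these pathways were read from lists, against 21.5% lower and 21.6% higher over all genes tested. Among 15 further mismatch repair, clamp and clamp loader genes, 8 were lower, 0 were higher (edgeR at an unadjusted p under 0.05 gave 9 and 0), and the median log2 fold change was -0.79. Pclaf, which encodes a PCNA-binding factor, fell by 2.72 on the log2 scale, Pole, for the leading-strand polymerase, by 1.56, and Lig1, for a ligase that seals nicks, by 1.25 (adjusted p by edgeR = 3.79e-06, 1.47e-05 and 0.00011). Among 46 further recombination and break response genes, 10 were lower, 9 were higher, and the median was 0.06; these shares lie near the 21.5% and 21.6% of all genes tested. Gen1, a resolvase, fell by 2.72 and Topbp1, a checkpoint activator, by 0.50 on the log2 scale, while Helq, a helicase, rose by 1.33 (adjusted p by edgeR = 0.000267, 0.000743 and 7.97e-05). Among 18 further Fanconi genes 3 were lower, 3 were higher, and the median was 0.10. Cenpx, of the core's DNA anchor, fell by 0.79, while Dclre1b, a nuclease gene, rose by 1.06 and Rev1, a bypass polymerase gene, by 0.59.

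Repair systems outside the set were counted in the same way, against 21.5% lower and 21.6% higher over all genes tested. Of 12 end joining genes 0 were lower (0 at an unadjusted p under 0.05 by edgeR too) and 5 higher, with a median of 0.22; Rif1, Polm and Xrcc4 rose by 0.69, 0.65 and 0.88 on the log2 scale (adjusted p by edgeR = 0.000521, 0.00762 and 0.0107). Of 21 nucleotide excision repair genes 2 were lower, 4 were higher, and the median was 0.23; Gtf2h1, Cdk7 and Rad23b rose by 0.77, 0.74 and 0.44. Of 19 base excision repair genes 4 were lower, 3 were higher, and the median was -0.06, again near the shares of all genes tested; Apex1 fell by 0.51, and Polb rose by 0.68. Whether the lists differ from each other was not tested.

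**Figure D4:**
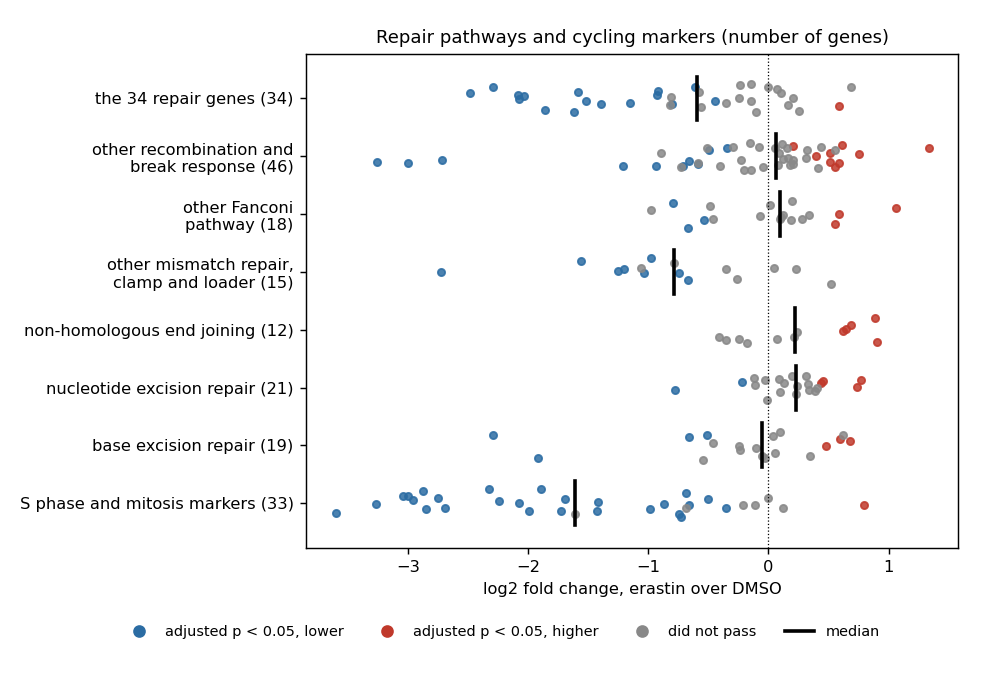
Log2 fold change, erastin over DMSO, of the genes tested in each list, 1 point a gene, with the list median as a black bar and the number of genes in brackets. The 34 repair genes have a median of -0.60 and the cycling markers one of -1.61, and the excision and end joining lists centre between -0.06 and 0.23.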

How the data were processed

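Total RNA, depleted of ribosomal RNA, was sequenced on an Ion Proton instrument, per the labels' protocols. The authors deposited 1 table of raw read counts per Ensembl gene id for 6 libraries, made with HTSeq 0.9.1 on build mm10 per the submitters' processing notes. The aligner, annotation and strand setting are not given in the sources used here. Of the 43346 rows, 42462 (98.0%) matched a symbol of the GENCODE M21 annotation (GRCm38), which gave coordinates and exon lengths.

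Counts were scaled with TMM factors, genes were kept by filterByExpr (minimum count 10, minimum total 15), and edgeR 4.0.16 (R 4.3.3) compared erastin with DMSO by its quasi-likelihood test without a replicate block. Benjamini-Hochberg adjustment ran over 14000 genes, with a threshold of 0.05. CPM used the TMM-scaled library sizes, and RPKM divided CPM by the exon length of all transcripts of a gene together, in kilobases. Total counts of 13333911 to 20509970 make 3 reads equal to 0.140 to 0.234 CPM. Partner ratios added 0.5 to each count and used an exact permutation test. On simulated counts of 13817 genes for this comparison, the test recovered 36 of 40 genes at a log2 change of -1 and 8 of 40 at -0.5, with 8 false calls. This recovery was not split by read depth, so it does not give the power for single repair genes. Of the repair genes, 10 had a mean under 50 reads. Palb2, Rad51c and Rad51b, which are among them, had SEs of 0.52, 0.52 and 0.74. Recovery at such depths was not tested. Alternatives were other scalings, filters, DESeq2 1.42.0, a replicate block, an offset for GC content and length (mgcv 1.9.3), thinning and leaving out each library.

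All 34 genes are named; from each other list the 3 genes with the smallest p are named, except where an item is not reported here, and any further gene was chosen after its values were seen. The genes and lists were chosen with earlier results of these data known.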

Additional observations from a re-analysis of the deposited data

How the results depend on the processing

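The number of repair genes lower with erastin was 16, was 15 to 18 under the other scalings, filters, models and thinning, 12 to 15 with 1 library left out, and 10 at an adjusted p under 0.01. The 1 higher gene, Msh3, was lost (0 higher) without a filter on low counts, with the GC and length offset, with that offset and the replicate block, and at an adjusted p under 0.01, and the count was 0 to 1 with 1 library left out. The replicate numbers did not pair the libraries (mean correlation of deviations 0.0128 for equal and -0.00628 for unequal numbers), and the fit with the replicate block gave 16 lower and 1 higher.

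The median log2 fold change of the 34 genes, -0.60, was -0.65 with upper-quartile factors, -0.53 with total count only, -0.71 with the GC and length offset, -0.72 with the offset and the replicate block, and -0.60 to -0.49 with 1 library left out. The median over all genes moved by less than 0.1 under these scalings.

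Reversals concerned values that passed no test. The recombinase paralog median was -0.0412 with the 1 CPM filter, -0.0445 with the offset and the replicate block, -0.0322 after thinning and -0.28 to 0.21 with 1 library left out; that of the mismatch group was -0.0217 to 0.34 with 1 library left out. Rad51b was at -0.0445 with the offset and the replicate block; Palb2 at 0.0637 with total count only, 0.0126 without a filter and 0.0029 with the replicate block; Bard1 at 0.0073 after thinning; and Fancm at -0.0656 with the offset and -0.0564 with the offset and the replicate block. With 1 library left out, the log2 fold changes ran from -0.33 to 0.55 for Rad51b, -0.19 to 0.17 for Palb2, -0.48 to 0.22 for Bard1, -0.33 to 0.0319 for Fancc, -0.31 to 0.22 for Fancl, -0.0422 to 0.20 for Fancm, -0.00033 to 0.27 for Xrcc2 and -0.0217 to 0.34 for Pms2. The cause was not tested. Depth limits the 5 genes with fewer than 10 reads in at least 1 library, Rad51b, Rad51ap1, Rad54b, Fanci and Xrcc3.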
